A study of Mus musculus with 6 samples.

Results

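The genes described here are 10 genes of skeletal mineralization: Alpl, Enpp1, Ank, Phospho1, Slc20a1 and Slc20a2, which set phosphate and pyrophosphate levels, Smpd3, Sgms1 and Sgms2, which break down or make sphingomyelin, and Mgp, which holds mineral back. They were picked by name and not by a cut on a measured value, but with earlier results of these data known. Their shares against all genes, given below, are therefore descriptive. They were looked up by symbol among the 55487 genes of a count table from mouse rib cages. All 10 were found and all 10 passed the filter of at least 10 counts summed over the libraries, which 26596 genes passed. Alpl and Sgms2 also stand in the list of lower genes that the study drew from these same libraries, so their direction here is not independent evidence.

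RNA was taken from rib cages at embryonic day 16.5, cleaned of connective tissue, with 1 embryo per library. The 3 control embryos (E420, E434 and E435) were labelled wild type. The 3 mutant embryos (E423, E433 and E440) were Col2-cre;Foxc1-/-;Foxc2-/-, which means that floxed copies of both forkhead genes were removed by a Cre recombinase under a Col2 (type II collagen) promoter. By the study's reporter cross this Cre was active across the forming skeleton, and how far it acted in other rib cage cells was not measured here. The parents were of mixed C57B6 and Black Swiss background. The comparison addresses which transcripts of the forming rib depend on the 2 forkhead genes in the cartilage lineage.

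Mineral forms first inside matrix vesicles, small membrane sacs that hypertrophic chondrocytes and osteoblasts shed into their matrix. PHOSPHO1 frees phosphate from phosphocholine inside the vesicle, and the neutral sphingomyelinase encoded by Smpd3 releases phosphocholine and ceramide from sphingomyelin. The sphingomyelin synthases SGMS1 (Golgi) and SGMS2 (mainly plasma membrane) run the other way and join phosphocholine to ceramide. Outside the vesicle, the ectoenzyme ENPP1 makes pyrophosphate from ATP, and ANK lets ATP or pyrophosphate out of the cell, both of which raise a mineral inhibitor, while tissue-nonspecific alkaline phosphatase, the product of Alpl, splits pyrophosphate into phosphate. Slc20a1 and Slc20a2 encode sodium-dependent phosphate transporters, and matrix Gla protein (Mgp) is a vitamin K-dependent inhibitor of calcification made by chondrocytes and vascular smooth muscle.

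Levels are in CPM, that is, counts brought to a library total of 1000000. Values of single libraries are listed as E420, E434, E435 for controls and as E423, E433, E440 for mutants. The libraries held between 37853988 and 47794799 counts, so 1 count equals between 0.0206 and 0.0255 CPM. Within each group 2 libraries were much alike. Across genes with 200 or more counts in both libraries together, the log2 ratio had an SD of 0.156 between E420 and E435 and 0.135 between E423 and E440, and lay between 0.493 and 1.58 for the other pairs. Both close pairs still differed by more than sampling noise, with a chi-square per gene on fragments of 6.72 and 2.52 where noise alone gives 1, and all 6 libraries were kept. E434 and E433 stood apart from the other libraries of their groups. By this SD, mutant E433 was nearer to controls E420 (0.493) and E435 (0.495) than to mutants E423 and E440 (0.888 for each). Control E434 was nearer to E433 (0.898) than to controls E420 (1.12) and E435 (1.14). The summed level of 8 of 8 early chondrocyte markers (such as Col2a1, Acan and Sox9) was 21010 CPM in E434 and 7425 CPM in E433, against 1191 and 1129 CPM in the other controls and 381 and 370 CPM in the other mutants. The targeted genes went with the labels: Foxc1 had 23.1, 36.9 and 24.2 CPM in control embryos, against 3.56, 9.61 and 3.51 CPM in mutant embryos, and Foxc2 had 1.99, 4.83 and 3.22 CPM against 0.649, 1.14 and 0.737 CPM.

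Sgms2 fell to 38.3% of its control level, and Alpl was at 31.2% and Phospho1 at 55.6% without passing the adjusted limit. The other sphingomyelin synthase gene, Sgms1, and both phosphate transporter genes lay within 0.16 of 0 on the log2 fold change scale. Among controls, Enpp1 and Mgp differed most between embryos, and among mutants Enpp1 and Smpd3 did. Smpd3 and Ank had their lowest level in 1 mutant, E433, and were higher in the other mutants than in controls E420 and E435. Each of these patterns is described below with its values.

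**Figure D1:**
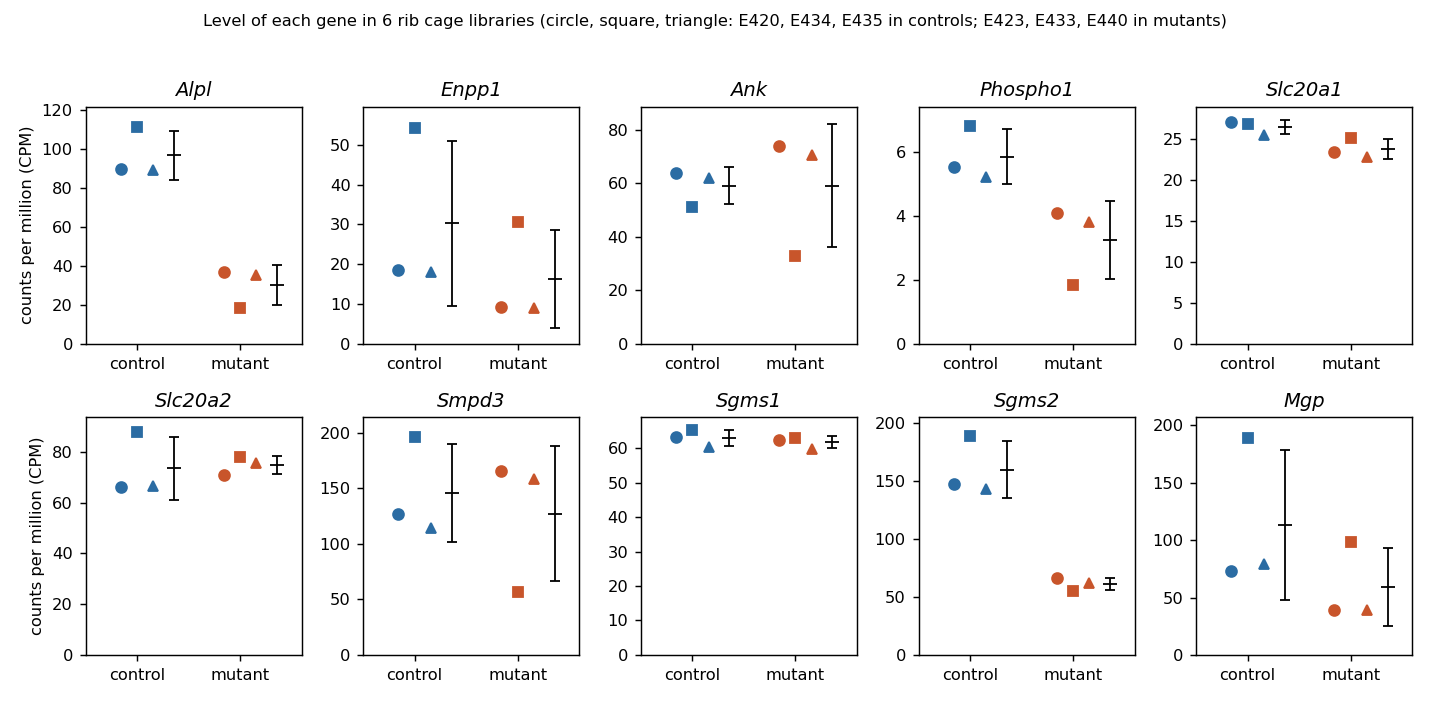
Level in CPM (vertical axis, from 0) of the 10 genes in each of 6 libraries, with 3 control and 3 mutant embryos per panel and the mean and SD of each group in black. Sgms2, Alpl, Phospho1 and Slc20a1 are the 4 genes whose groups do not overlap, and E434 and E433 (squares) are the highest library of their group in Enpp1 and Mgp.

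The test was edgeR's quasi-likelihood test over all 26596 genes with Benjamini-Hochberg adjustment, and calling a gene took an adjusted p under 0.1 together with a fold change, on the log2 scale, of 1 or more in size. By this rule 1 of the 10 genes was called lower, against 0.0301% of all genes tested, and 0 of 10 were called higher, against 0.0338%. At an unadjusted p under 0.05, 3 of 10 were lower (4.7% of all genes) and 0 of 10 were higher (5.9%). In 4 of 10 every mutant library lay below every control library (8.21% of all genes), and in 0 of 10 every mutant library lay above (6.81%). DESeq2's Wald test with the same limits called 2 of 10 lower, against 0.557% of the genes it gave an adjusted p, and 0 of 10 higher, against 1.62%. The median log2 fold change of the 10 genes was -0.52, against 0.01 for all genes tested. With 3 embryos a group, an exact permutation of a single value cannot give a 2-sided p under 0.1. The study's methods state that littermates were compared but not which of these embryos shared a litter, and the p-values rest on the spread between them.

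**Figure D2:**
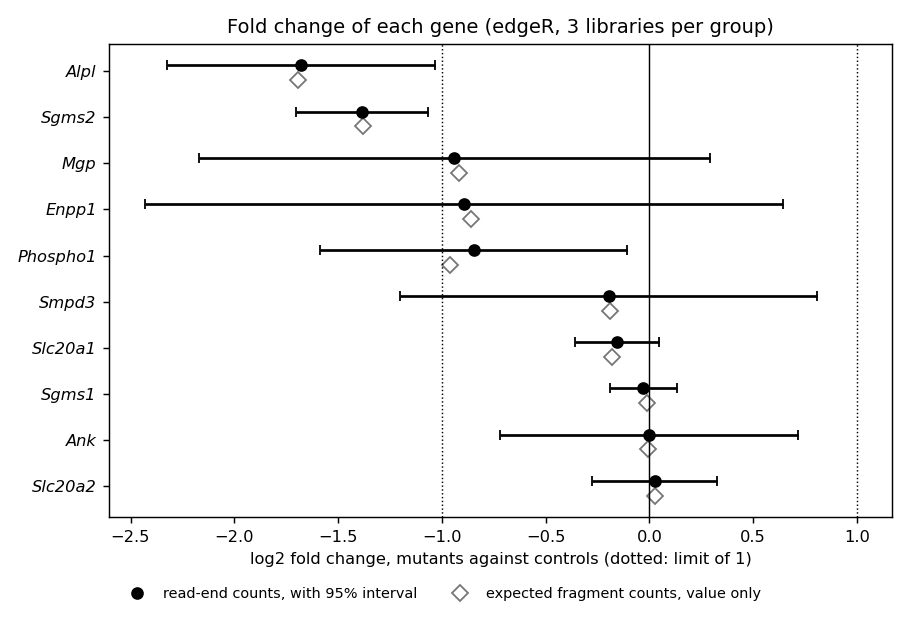
Log2 fold change of the 10 genes, mutants against controls (horizontal axis), from read-end counts with its 95% interval (black circles) and from expected fragment counts (open diamonds, value only). Alpl at -1.68 and Sgms2 at -1.39 are the only genes whose interval lies wholly beyond the limit of -1, and the interval is widest for Enpp1, from -2.43 to 0.64.

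To show the sequence at the starts of 3 genes that were lower in every mutant than in every control, the bases before annotated start sites are printed for Sgms2, Alpl and Phospho1, with Enpp1 beside them as a gene whose groups overlapped. Start sites and sequence are from RefSeq on GRCm38.p6, which gave windows for 7 of the 10 genes and 17 start sites in all, and gave none for Smpd3, Slc20a2 and Mgp. A pair of short motifs was searched on both strands in the 250 bases before each start, and capitals mark them: TGTGGT, the core bound by RUNX factors of the osteoblast lineage, and GTAAACA, a core bound by forkhead factors. The motifs share no letters in any window below. The windows, read 5′ to 3′ along the gene, are chr3:131491444-131491693 on the minus strand for the outermost of 6 Sgms2 starts, chr3:131490231-131490407 on the minus strand for an inner Sgms2 start, chr4:137796385-137796634 on the minus strand for the outer of 2 Alpl starts, chr11:95824250-95824498 on the plus strand for Phospho1 and chr10:24712160-24712409 on the minus strand for Enpp1. Annotated exon bases were cut from the inner Sgms2 window and from the Phospho1 window.
Sgms2, outermost start: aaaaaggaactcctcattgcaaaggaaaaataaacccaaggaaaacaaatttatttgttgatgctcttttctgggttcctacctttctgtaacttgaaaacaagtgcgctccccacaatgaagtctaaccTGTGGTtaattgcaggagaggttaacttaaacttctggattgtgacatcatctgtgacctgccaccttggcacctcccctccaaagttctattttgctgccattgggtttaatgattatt
Sgms2, inner start: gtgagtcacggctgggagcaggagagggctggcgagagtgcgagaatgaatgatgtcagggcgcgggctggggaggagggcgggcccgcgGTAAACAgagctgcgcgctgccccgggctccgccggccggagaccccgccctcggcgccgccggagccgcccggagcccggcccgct
Alpl, outer start: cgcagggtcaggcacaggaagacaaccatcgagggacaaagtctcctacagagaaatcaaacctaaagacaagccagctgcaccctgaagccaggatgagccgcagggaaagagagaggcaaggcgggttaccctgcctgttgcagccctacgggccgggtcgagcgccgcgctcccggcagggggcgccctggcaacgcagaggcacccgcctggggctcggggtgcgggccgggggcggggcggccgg
Phospho1: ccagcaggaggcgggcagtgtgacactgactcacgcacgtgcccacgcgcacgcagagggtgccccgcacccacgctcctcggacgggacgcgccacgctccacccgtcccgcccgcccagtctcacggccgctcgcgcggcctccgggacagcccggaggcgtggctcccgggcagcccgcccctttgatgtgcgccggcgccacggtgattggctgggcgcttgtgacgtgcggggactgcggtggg
Enpp1: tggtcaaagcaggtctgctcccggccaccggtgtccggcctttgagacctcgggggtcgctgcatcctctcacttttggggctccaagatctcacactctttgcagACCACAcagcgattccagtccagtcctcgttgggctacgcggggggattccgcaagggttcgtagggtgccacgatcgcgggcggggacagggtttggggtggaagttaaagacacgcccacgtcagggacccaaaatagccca
The RUNX core stood 120 bases before the outermost Sgms2 start, on the gene's own strand. It also stood 144 bases before the Enpp1 start, on the opposite strand, where it reads as its reverse complement, ACCACA. The forkhead core stood 87 bases before the inner Sgms2 start. The printed Sgms2 windows are those of its 6 that hold a motif, and its other windows, not printed, held neither. The outermost Sgms2 start lies beyond the annotated Sgms2 exons, which end at 131491411. Neither motif was in the windows of Alpl or Phospho1. Of all 32851 windows in the table, 14% held the RUNX core and 3.17% the forkhead core, and of the 17 windows of these genes 3 held the former (Enpp1, Sgms2 and Slc20a1) and 1 the latter. These matches describe letters only, and which of the starts the rib cage libraries used was not measured.

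Sgms2 (ENSMUSG00000050931.7, chromosome 3 from 131318985 to 131491411 on the minus strand, GRCm38) was the member called. It had 148, 189 and 143 CPM in control embryos, against 66.4, 55.5 and 61.8 CPM in mutant embryos. The mutants were close to each other and all lay under the lowest control. Sgms2 fell with a log2 fold change of -1.39 (standard error 0.133, 95% interval -1.70 to -1.07, adjusted p = 0.0775 from edgeR, rank 7 of all genes by p). None of its exon bases were shared with another gene. From the expected counts of a second pipeline, the log2 fold change was -1.38 (adjusted p = 0.0918 from edgeR). The call rested on the close libraries: without E420, E435, E423 or E440 the adjusted p lay between 0.396 and 0.471, and with each close pair summed to 1 library it was 0.9998, with log2 fold changes between -1.49 and -1.39.

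Sgms1 (ENSMUSG00000040451.18, chromosome 19 from 32122727 to 32389714 on the minus strand) makes sphingomyelin in the Golgi of most cells. It had 63.3, 65.2 and 60.5 CPM in control embryos, against 62.3, 63.0 and 59.8 CPM in mutant embryos. The 6 values overlapped and had the smallest spread of all 10 genes, an SD of 0.0456 on the log2 CPM scale. On the log2 scale the fold change was -0.03 (95% interval -0.19 to 0.13, adjusted p = 0.904 from edgeR). Per kilobase of exon, the ratio of Sgms2 to Sgms1 was 3.96, 4.90 and 4.02 in the controls and 1.80, 1.49 and 1.75 in the mutants. The groups did not overlap in this ratio, and the mean log2 ratio, mutants minus controls, was -1.35 (exact 2-sided permutation test over the 6 libraries, p = 0.1, the smallest it can give, and 0.2 adjusted over 4 pairs). Which gene was higher in mutants depended on the length used. Over the effective lengths of the second pipeline, Sgms2 had 14.5, 12.1 and 11.9 CPM per kilobase in mutants, and Sgms1 had 20.5, 24.9 and 21.3. In every control Sgms2 was above Sgms1 on that scale too.

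Smpd3 (ENSMUSG00000031906.9, chromosome 8 from 106252548 to 106337988 on the minus strand) encodes the sphingomyelinase of the vesicle pathway. It had 126, 196 and 114 CPM in control embryos, against 166, 57.0 and 159 CPM in mutant embryos. E433 was the lowest library and E434 the highest, and the other mutants lay above the other controls, so the groups overlapped. The log2 fold change was -0.20 (95% interval -1.20 to 0.81, adjusted p = 0.894 from edgeR), and it turned to 0.16 without E433 and 0.08 without E434. In the 4 libraries left when both were taken out, an alternative added after the values were seen, it was 0.43 (adjusted p = 7.66e-07 from edgeR), with a spread taken from close pairs only. Its exons share 4.72% of their bases with Prmt7 on the other strand, and the counts took no notice of strand.

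Alpl (ENSMUSG00000028766.10, chromosome 4 from 137741733 to 137796384 on the minus strand) had 89.7, 111 and 89.3 CPM in control embryos, against 36.7, 18.4 and 35.5 CPM in mutant embryos. Every mutant was under 37 CPM and every control above 89 CPM, and E433 was the lowest. On the log2 scale the fold change was -1.68 (standard error 0.269, 95% interval -2.33 to -1.03, unadjusted p = 0.000565, adjusted p = 0.16 from edgeR), so Alpl missed the adjusted limit. It passed with DESeq2's Wald test (adjusted p = 8.7e-08), with the early chondrocyte marker level as a covariate (log2 fold change -1.82, adjusted p = 0.0508 from edgeR), without E433 (log2 fold change -1.42, adjusted p = 0.00669 from edgeR) and without both E433 and E434 (-1.31, adjusted p = 4.82e-14 from edgeR, spread from close pairs only). Without E420, E435, E423 or E440 the adjusted p from edgeR lay between 0.614 and 0.645. It was 0.233 without E434 and 0.9998 with each close pair summed to 1 library. Across 15 alternatives the log2 fold change stayed between -1.88 and -1.31.

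Enpp1 (ENSMUSG00000037370.13, chromosome 10 from 24637914 to 24712159 on the minus strand), the main source of extracellular pyrophosphate, had 18.7, 54.3 and 18 CPM in control embryos, against 9.36, 30.5 and 9.08 CPM in mutant embryos. E434 and E433, the libraries rich in early chondrocyte markers, were the highest of their groups, and mutant E433 lay above 2 controls. The log2 fold change was -0.89 (95% interval -2.43 to 0.64, adjusted p = 0.654 from edgeR). With the early chondrocyte marker level as a covariate it was -0.37 (adjusted p = 0.107 from edgeR). The value rested on single libraries: it was -0.17 without E434 (adjusted p = 0.938 from edgeR), -1.71 without E433 (adjusted p = 0.135) and -0.99 without both (adjusted p = 1.91e-08, spread from close pairs only).

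Ank (ENSMUSG00000022265.7, chromosome 15 from 27466677 to 27594909 on the plus strand) had 64.1, 51.4 and 62.2 CPM in control embryos, against 73.9, 32.8 and 70.7 CPM in mutant embryos. As in Smpd3, E433 was the lowest of the 6 libraries. The other mutants were the highest for Ank, whereas control E434 was the highest for Smpd3. On the log2 scale the fold change was 0.00 (95% interval -0.72 to 0.72, adjusted p = 0.999 from edgeR), 0.29 without E433, and 0.20 without E433 and E434 (adjusted p = 0.00501 from edgeR, spread from close pairs only). The ratio of Alpl to Ank per kilobase of exon was 1.25, 1.94 and 1.29 in the controls and 0.444, 0.503 and 0.450 in the mutants. Alpl was thus above Ank in every control and below it in every mutant, a mean log2 difference, mutants minus controls, of -1.65 (exact 2-sided permutation test, p = 0.1, the smallest it can give, and 0.2 adjusted over 4 pairs). The ratio of Alpl to Enpp1 was 12.2, 5.21 and 12.6 in the controls and 9.96, 1.53 and 9.95 in the mutants, where the groups overlapped (exact 2-sided permutation p = 0.5).

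Phospho1 (ENSMUSG00000050860.6, chromosome 11 from 95824499 to 95832140 on the plus strand) had few counts, between 80 and 309 a library. Its level was 5.52, 6.82 and 5.22 CPM in control embryos, against 4.09, 1.86 and 3.81 CPM in mutant embryos. Every mutant was under every control, and E433 was the lowest. The log2 fold change was -0.85 (standard error 0.309, 95% interval -1.59 to -0.11, unadjusted p = 0.0309, adjusted p = 0.433 from edgeR), which did not pass the limit. It was -0.56 without E433 (adjusted p = 0.11 from edgeR) and -0.44 without E433 and E434 (adjusted p = 0.0197, spread from close pairs only).

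The low counts of Phospho1 went with how the reads were counted. Of its 2029 exon bases, 89.6% are also exon bases of another gene in the annotation used by the authors: 1818 are shared with Zfp652 on the same strand and 1708 with Abi3 on the other strand. By the counting command a read that touches 2 genes is left out, which leaves 211 bases, the first exon at chr11:95824499-95824709. The expected counts of the second pipeline, which share such fragments between transcripts, gave 1622, 2168 and 2006 fragments in control embryos, against 1087, 655 and 1166 in mutant embryos. Summed over the libraries, there were 0.138 counted read ends per fragment for Phospho1, against between 1.69 and 2.1 for the other 9 genes, where 2 is the number of ends of a fragment. On these expected counts the log2 fold change of Phospho1 was -0.96 (standard error 0.212, unadjusted p = 0.00351, adjusted p = 0.294 from edgeR), again lower in every mutant and short of the limit.

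Slc20a1 (ENSMUSG00000027397.14, chromosome 2 from 129198764 to 129211616 on the plus strand) had 27.1, 26.9 and 25.5 CPM in control embryos, against 23.4, 25.1 and 22.8 CPM in mutant embryos. The groups did not overlap, but the gap between the lowest control and the highest mutant, E433, was under 1 CPM. On the log2 scale the fold change was -0.16 (95% interval -0.36 to 0.05, adjusted p = 0.552 from edgeR). Its exons share 13.1% of their bases with the antisense genes Gm4430 and 9830144P21Rik. Slc20a2 (ENSMUSG00000037656.9, chromosome 8 from 22476788 to 22569612 on the plus strand) had 66.2, 87.8 and 66.5 CPM in control embryos, against 70.7, 77.9 and 75.7 CPM in mutant embryos, which lay inside the range of the controls. Its log2 fold change was 0.03 (95% interval -0.28 to 0.33, adjusted p = 0.959 from edgeR). The ratio of Slc20a1 to Slc20a2 per kilobase of exon was 0.456, 0.341 and 0.427 in the controls and 0.368, 0.359 and 0.336 in the mutants, and the groups overlapped (exact 2-sided permutation p = 0.3).

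Mgp (ENSMUSG00000030218.2, chromosome 6 from 136872435 to 136875823 on the minus strand) had 72.8, 189 and 78.9 CPM in control embryos, against 39.6, 98.8 and 39.4 CPM in mutant embryos. As in Enpp1, E434 and E433 were the highest of their groups, and E433 lay above 2 controls. The log2 fold change was -0.94 (95% interval -2.17 to 0.29, adjusted p = 0.555 from edgeR). With the early chondrocyte marker level as a covariate it was -0.49 (adjusted p = 0.0292 from edgeR), short of the fold limit of 1. It also rested on single libraries, at -0.36 without E434 (adjusted p = 0.8 from edgeR), -1.52 without E433 (adjusted p = 0.12) and -0.94 without both (adjusted p = 3.96e-11, spread from close pairs only).

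**Figure D3:**
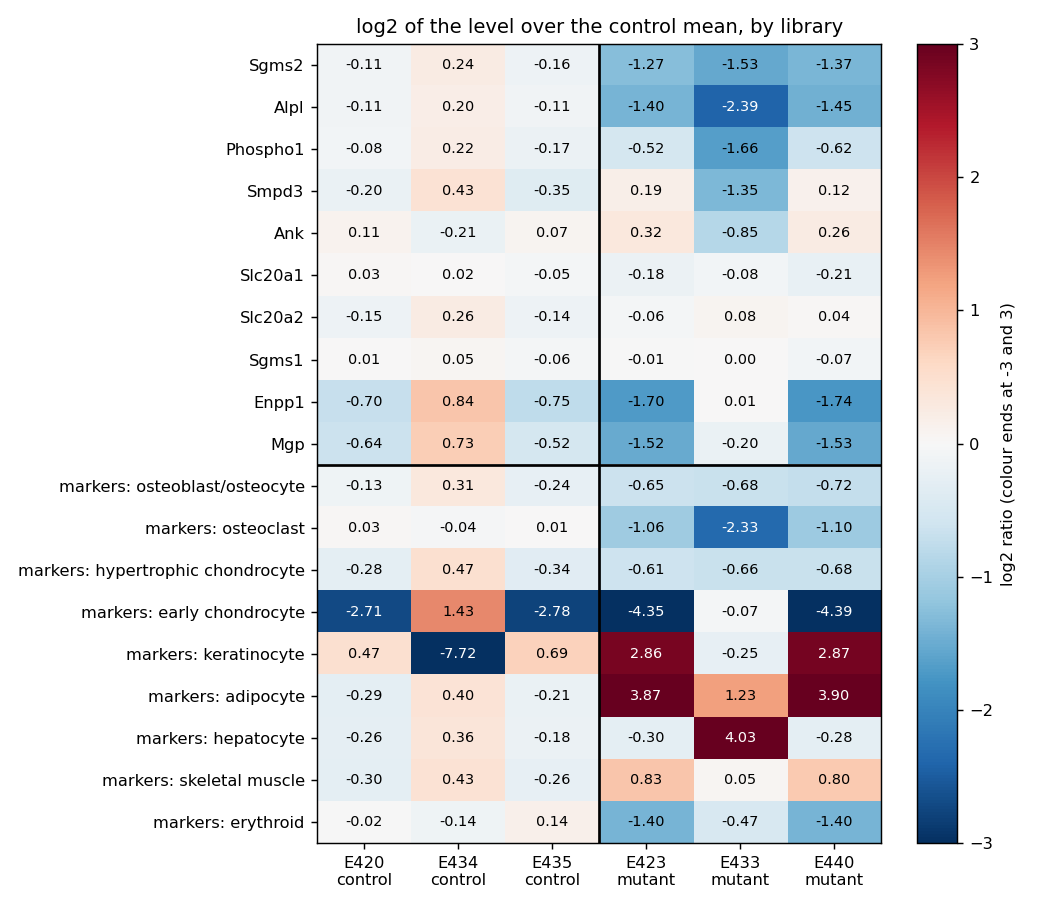
Log2 of the level over the mean of the 3 controls for the 10 genes and for the summed level of 9 marker lists (rows) in the 6 libraries (columns), with the colour scale ending at -3 and 3. Sgms2 lies between -1.53 and -1.27 in all mutants, while Enpp1, Mgp and the early chondrocyte markers are each highest of their group in E434 and E433.

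The 10 genes fell into a few patterns over the 6 libraries. Likeness was measured as the root mean square difference of log2 CPM after each gene was centred on its own mean, which is 0 for identical profiles. The closest pairs were Slc20a1 with Sgms1 (0.0707), Slc20a2 with Sgms1 (0.125), Slc20a1 with Slc20a2 (0.164), Enpp1 with Mgp (0.165), Alpl with Sgms2 (0.312) and Phospho1 with Smpd3 (0.357). The farthest was Enpp1 with Ank (1.22). Among the 16482 other genes with a mean log2 CPM of at least 0, those most like Sgms2 were Mamdc2 (0.107), Kazald1 (0.111) and Cfhr2 (0.135), those most like Phospho1 were Col13a1 (0.0895), Steap4 (0.0992) and Snx10 (0.101), and those most like Smpd3 were Fxyd5 (0.201), Hsf2bp (0.214) and Plekhg4 (0.22). Mamdc2 had 20.2, 22.5 and 20.2 CPM in control embryos, against 10.1, 7.75 and 8.15 CPM in mutant embryos. Col13a1 had 26.0, 29.8 and 25.8 CPM in control embryos, against 17.7, 9.70 and 17.8 CPM in mutant embryos, with E433 lowest as in Phospho1.

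Marker genes of the cells in a rib cage moved with these patterns. The summed level of 9 of 9 osteoblast and osteocyte markers, such as Col1a1, Runx2 and Sp7, was between 10956 and 16027 CPM in controls and between 7838 and 8231 CPM in mutants, and 5 of 5 osteoclast markers, such as Ctsk and Acp5, summed to between 568 and 594 CPM and to 280, 116 and 273 CPM in mutant embryos. Both sums were lower in every mutant, as were Sgms2, Alpl and Phospho1. Col1a1 made up most of the first sum, and Mmp9 and Ctsk most of the second. Taken singly, 8 of 9 osteoblast and 5 of 5 osteoclast markers were lower in every mutant, and Bglap2 overlapped. Acp5 had 70.9, 82.0 and 71.8 CPM in control embryos, against 69.5, 9.44 and 66.9 CPM in mutant embryos, so it changed little outside E433. Within the osteoblast list, Runx2 had 34.1, 44.6 and 30.9 CPM in control embryos, against 14.7, 19.4 and 15.9 CPM in mutant embryos. The 4 hypertrophic chondrocyte markers summed to between 765 and 1340 CPM in controls and between 605 and 631 CPM in mutants, and Mmp13 among them had 200.2, 206.9 and 208.5 CPM against 35.1, 4.29 and 37.8 CPM, lowest in E433 as Alpl and Phospho1 were. The other markers of that list overlapped between groups, and Col10a1 (75.6, 126 and 73.6 CPM) and Ihh (1.15, 6.29 and 1.78 CPM) were highest of the mutants in E433. In whole tissue, fewer cells of a type and less RNA per cell cannot be told apart.

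Markers of tissue beside the rib also differed between embryos. The 8 keratinocyte markers summed to 5076, 17.4 and 5904 CPM in control embryos, against to 26589, 3073 and 26775 CPM in mutant embryos, so within each group skin genes were lowest in the library where Enpp1 and Mgp were highest. The 6 adipocyte markers summed to between 6.52 and 10.5 CPM in controls and to 117, 18.8 and 119 CPM in mutants, with Lep at 0 counts in every control. The 6 hepatocyte markers reached 586 CPM in E433 and lay between 29.2 and 46.0 CPM in the other libraries, and the 6 skeletal muscle markers ranged from 10022 to 16596 CPM in controls and from 12744 to 21901 CPM in mutants. The 5 erythroid markers ranged from 13304 to 16161 CPM in controls and from 5557 to 10573 CPM in mutants. The 5 endothelial markers, from 347 to 460 CPM in controls and 331 to 427 CPM in mutants, and the 5 smooth muscle markers, from 529 to 639 CPM and from 587 to 590 CPM, overlapped between groups. The part of these tissues in the levels of the 10 genes was not tested, apart from the early chondrocyte covariate given above.

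Per kilobase of exon, which allows levels of different genes to be set beside each other, Mgp was the highest of the 10 in controls (95.7 ± 55.0 CPM per kilobase, SD, n = 3). Smpd3 (27.8 ± 8.49), Sgms2 (25.7 ± 4.0) and Alpl (24.0 ± 3.10) followed, and neighbours among these 3 did not differ beyond their spread. Ank (16.4 ± 1.90), Slc20a2 (11.8 ± 1.99), Sgms1 (5.97 ± 0.225) and Slc20a1 (4.75 ± 0.154) came next without overlap between neighbours. Enpp1 (2.95 ± 2.02) overlapped both Slc20a1 above it and Phospho1 (2.88 ± 0.419) below it. In mutants, Mgp (49.9 ± 28.8) and Smpd3 (24.3 ± 11.6) were still first, and Sgms2 (9.83 ± 0.880) and Alpl (7.49 ± 2.53) stood below Ank (16.4 ± 6.34) and Slc20a2 (12 ± 0.595). The place of Phospho1 changed with the length it was divided by: over the 211 bases that no other gene shares it was 27.7 CPM per kilobase in controls, rank 3, and by RSEM's fragments over effective length it was 74.2 in controls and 38.6 in mutants, rank 2 of 10 in both. Alpl was 39.4 and Sgms2 33.4 in controls on that RSEM scale, rank 3 and 4, and Mgp was rank 1 on all 3 scales. Other genes moved on the RSEM scale too. There Smpd3 was rank 5 in controls, at 30.1, and Slc20a2, Sgms1 and Ank were rank 6, 7 and 8. Neighbours among Slc20a2, Sgms1 and Ank overlapped in controls on that scale, so their separation given above holds per kilobase of exon.

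**Figure D4:**
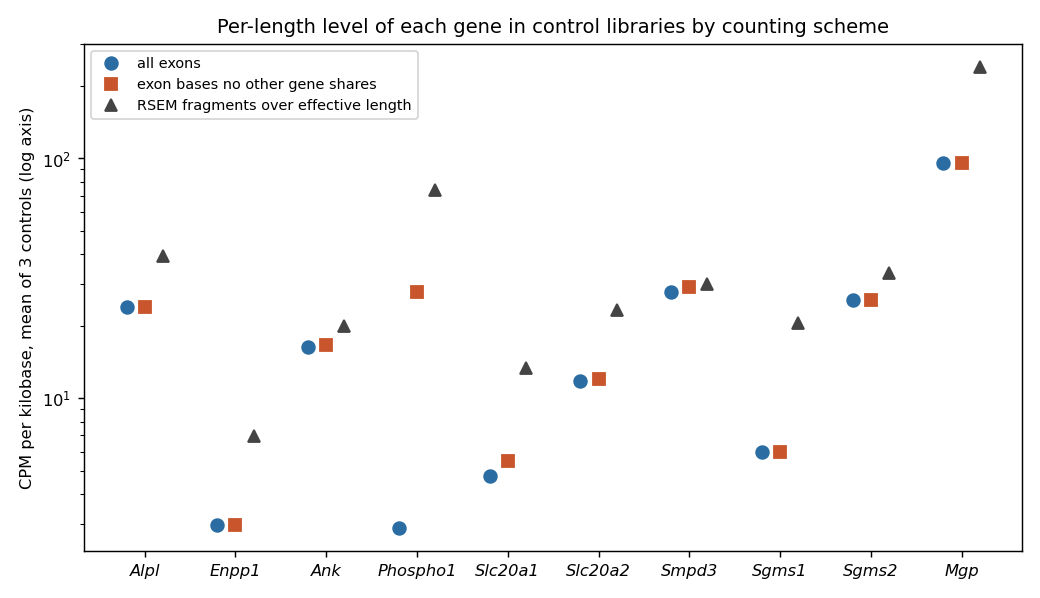
Mean level of the 10 genes in the 3 controls in CPM per kilobase (vertical log axis) on 3 scales: all exon bases (circles), exon bases that no other gene shares (squares) and RSEM fragments over effective length (triangles). Phospho1 moves from 2.88 to 27.7 and 74.2 between the scales, while Mgp is the highest on each.

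The other genes of the same pathways, from lists written with earlier results of these data known, mostly lay near the median of all genes. No gene of these 6 lists was called by edgeR in either direction, and each count below is to be read against the background shares given above. Of 13 tested of 16 other phosphatases, ENPPs and nucleotide enzymes, 2 were lower and 1 higher at an unadjusted p under 0.05, with a median log2 fold change of -0.08. The strongest by p were Nt5e, the ectoenzyme that frees phosphate and adenosine from AMP, at 30.2, 22 and 27.6 CPM in control embryos, against 54.8, 35.2 and 53.1 CPM in mutant embryos (log2 fold change 0.84, adjusted p = 0.339 from edgeR), Enpp6, a choline phosphodiesterase, at 10.3, 10.4 and 11 CPM against 6.09, 1.72 and 5.59 CPM (log2 fold change -1.24, adjusted p = 0.428), and Entpd1 (log2 fold change -0.27, adjusted p = 0.435). Enpp6 was lower in every mutant and lowest in E433, as Phospho1 was, and was called by DESeq2 (adjusted p = 0.0609).

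Of 6 tested of 9 other phosphate transporters, 1 was lower and 1 higher at an unadjusted p under 0.05, with a median of 0.17. Xpr1, the phosphate exporter, had 39.9, 55.4 and 36.4 CPM in control embryos, against 33.5, 31.1 and 30.3 CPM in mutant embryos (log2 fold change -0.47, adjusted p = 0.425 from edgeR). Slc34a2 had 2.88, 0 and 3.01 CPM in control embryos, against 45.2, 2.81 and 44.2 CPM in mutant embryos (log2 fold change 3.97, adjusted p = 0.442 from edgeR). It was thus high in the 2 mutants with the highest keratinocyte and adipocyte marker levels, and the groups overlapped. Slc37a4, which moves glucose 6-phosphate, came next by p (log2 fold change 0.24, adjusted p = 0.61 from edgeR).

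Of 17 matrix vesicle and phosphocholine genes, such as the annexins that vesicle membranes carry, 0 were lower and 1 was higher at an unadjusted p under 0.05, with a median of -0.03. Car2, a carbonic anhydrase, had 20.5, 16.2 and 19.2 CPM in control embryos, against 22.8, 27.4 and 22.1 CPM in mutant embryos (log2 fold change 0.37, adjusted p = 0.434 from edgeR). Next by p were the tetraspanin gene Cd9 (-0.19) and Itgb1 (-0.23), an integrin subunit. Anxa5 and Anxa6 had log2 fold changes of -0.14 and -0.07.

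Of 8 tested of 9 other sphingomyelinase and sphingomyelin synthase genes (1 gene stands in the list under 2 names), 0 were lower and 1 was higher at an unadjusted p under 0.05, with a median of 0.00. Smpd1, the lysosomal acid sphingomyelinase, had 55.8, 49.0 and 60.1 CPM in control embryos, against 134, 47.8 and 129 CPM in mutant embryos (log2 fold change 0.91, adjusted p = 0.465 from edgeR). It was higher than every control in 2 mutants and lower than every control in E433. Smpdl3b came next (log2 fold change -0.93, adjusted p = 0.475), and then Col4a3bp (-0.08, adjusted p = 0.658), which carries ceramide to the Golgi for sphingomyelin synthesis.

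Of 26 genes of ceramide synthesis and breakdown, 1 was lower and 2 were higher at an unadjusted p under 0.05, with a median of 0.16. Asah1, acid ceramidase, had 80.5, 85.5 and 81.5 CPM in control embryos, against 71.4, 71.0 and 72.1 CPM in mutant embryos (log2 fold change -0.21, adjusted p = 0.394 from edgeR), a small difference without overlap. Asah2, neutral ceramidase, had 26.7, 20.6 and 26.5 CPM in control embryos, against 74.1, 24.4 and 71.6 CPM in mutant embryos (log2 fold change 1.21, adjusted p = 0.415 from edgeR), with E433 inside the control range, and was called by DESeq2 (adjusted p = 0.0329). Sgpp2, a sphingosine 1-phosphate phosphatase, was under 2 CPM in every library (log2 fold change 1.76, adjusted p = 0.459 from edgeR).

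A list of 13 genes held other mineral inhibitors, the vitamin K cycle and genes such as Vdr and Sost that are not themselves direct mineral inhibitors. Of these 13, 2 (Vdr and Sost) were lower and 1 higher at an unadjusted p under 0.05, with a median of -0.06. Vdr, the vitamin D receptor, had 17.6, 22.7 and 19.8 CPM in control embryos, against 8.61, 4.76 and 8.80 CPM in mutant embryos (log2 fold change -1.44, adjusted p = 0.202 from edgeR, 5.28e-06 from DESeq2). Sost, the osteocyte inhibitor of WNT signalling, had 3.97, 7.04 and 5.09 CPM against 2.24, 1.39 and 2.82 CPM (log2 fold change -1.32, adjusted p = 0.346 from edgeR, 0.00619 from DESeq2). Both were lower in every mutant and lowest in E433. Ecm1 had 12.1, 10.9 and 10.6 CPM in control embryos, against 62.2, 10.6 and 59.6 CPM in mutant embryos (log2 fold change 1.97, adjusted p = 0.395 from edgeR), high in the 2 mutants rich in keratinocyte markers. Ggcx and Vkorc1, the carboxylase and reductase that activate Mgp protein, had log2 fold changes of -0.34 and -0.27 with overlapping groups.

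**Figure D5:**
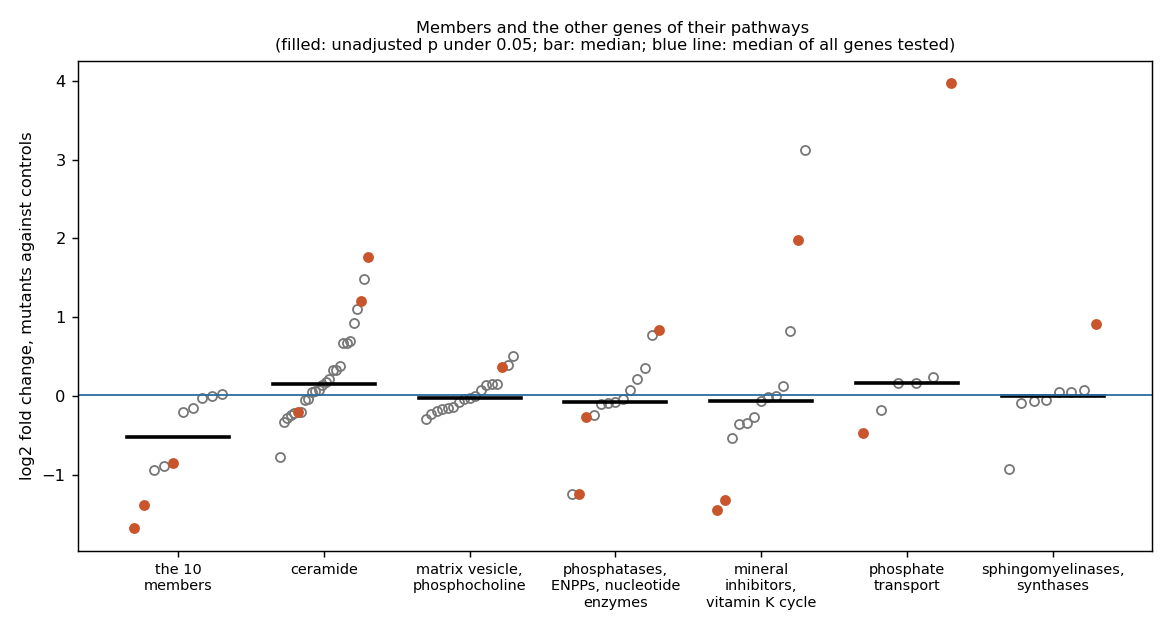
Log2 fold change, mutants against controls (vertical axis), of the 10 genes and of each tested gene in 6 other lists (columns), with genes at an unadjusted p under 0.05 filled, a black bar at each median and a blue line at the median of all genes. The bar lies at -0.52 for the 10 genes and between -0.08 and 0.17 for the other lists.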

How the data were processed

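The authors sequenced stranded paired-end mRNA libraries from the rib cages of 6 mouse embryos, 3 controls and 3 mutants as grouped by the sample labels. Per the submitters' processing notes, reads were aligned to GRCm38 with HISAT2 2.1.0 and counted with featureCounts 1.6.0. The deposited table holds raw counts per gene, and its header shows that each read end was counted by itself, that strand was not used, that only the primary alignment of a read was counted, and that no option to count reads touching more than 1 gene was set, so such reads were left out. Also deposited were expected counts and effective lengths per gene and sample from STAR 2.7.6 and RSEM 1.2.31, which were rounded to whole numbers here and used as an alternative. Per-length levels were computed from the exon length in the count table. The authors' own comparison tables were not used, and neither were 12 per-sample columns in them.

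Genes with at least 10 summed counts entered edgeR 4.0.16 (R 4.3.3) with TMM scaling and its quasi-likelihood test, with Benjamini-Hochberg adjustment over all of them and limits of 0.1 on the adjusted p and 1 on the log2 fold change, after the study's methods. DESeq2 1.42.0 was an alternative. Both were run on simulated libraries drawn independently with 1 dispersion for all genes. Of 100 genes changed by 2 on the log2 scale, edgeR called 97 and DESeq2 98, and they also called 20 and 39 unchanged genes. The simulation held no close pairs or outlying libraries, so it does not show how the calls behave with those. Log2 CPM for profiles used a prior count of 2. Ratios of pairs of genes were tested by an exact 2-sided permutation over libraries. The 10 genes were all named. In each other list the genes called and the 3 of smallest unadjusted p were named, others being added after their values were seen, and the 3 genes of closest profile were named for Sgms2, Phospho1 and Smpd3. The genes and lists were chosen with earlier results of these data known. The labels do not say which embryos of the groups, if any, are pairs.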

Additional observations from a re-analysis of the deposited data

How the results depend on the processing

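The number of genes called was 17, and of the 10 genes 1 (Sgms2). All genes called came to 477 with DESeq2's Wald test, 35 with a robust empirical Bayes step, 37 with no low-count filter, 10 on RSEM expected counts, 257 with the early chondrocyte covariate and 0 at an adjusted p under 0.05, where 2820 genes had an unadjusted p under 0.05. Leaving out 1 library gave between 0 and 1087 (1087 without E433, 17 without E434 and 0 without E420, E435, E423 or E440, where between 1450 and 1698 genes had an unadjusted p under 0.05). Added after the data were seen, leaving out E433 and E434 gave 2066, and summing the close pairs gave 0. Of the 10 genes, 2 (Alpl and Sgms2) were called with DESeq2, with the covariate and without E433 and E434, 0 at an adjusted p under 0.05 and with close pairs summed, and between 0 and 2 with 1 library left out. The values of Alpl and Sgms2 kept their sign under each alternative run, as did those of Enpp1, Phospho1, Slc20a1, Sgms1 and Mgp.

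The values of Ank, Slc20a2 and Smpd3 changed sign. Ank was 0.0064 with DESeq2's size factors and with its Wald test, 0.0018 with filterByExpr, 0.20 without E433 and E434, and between -0.19 and 0.29 with 1 library left out. Slc20a2 lay between -0.045 and 0.17 with 1 library left out and was -0.031 with close pairs summed, and Smpd3 lay between -0.43 and 0.16 with 1 library left out and was 0.43 without E433 and E434. The log2 ratio of Alpl to Enpp1 differed by between -1.25 and 0.10 with 1 library left out, turning only without E433, and that of Sgms2 to Sgms1 by -1.17 without E433 and E434. The cause was not tested. No paired analysis was possible because neither the labels nor the methods, which say that littermates were compared, state which embryos shared a litter. Phospho1 had the fewest counts of the 10 genes, 80 in E433, over the bases that no other gene shares.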

Other observations

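The profile search was repeated for Alpl after its values were seen. Among the 16482 other genes with a mean log2 CPM of at least 0, those with close profiles included Vdr (root mean square difference of 0.144 on the log2 scale) and Tnfsf11 (0.145), which encodes the osteoclast factor RANKL. Tnfsf11 had 3.64, 4.77 and 3.65 CPM in control embryos, against 1.44, 0.858 and 1.19 CPM in mutant embryos. Vdr stands in the list that holds the other mineral inhibitors and the vitamin K cycle, so it was not chosen from outside the lists used here.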
